A study of Mus musculus with 6 samples.

Results

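The S100 genes encode small calcium-binding proteins, and 10 of them were followed through 4T1 tumors of BALB/c mice. The 4T1 line is a mouse mammary carcinoma that metastasizes readily and grows in this strain as a graft. They were chosen by gene symbol, as S100a1, S100a4, S100a6, S100a8, S100a9, S100a10, S100a11, S100a13, S100a14 and S100a16, and all 10 had a row in the deposited table of 16763 genes. The 3 tumor libraries of the model group came from mice bearing 4T1 tumors, and the 3 libraries of the DMDD liposome group came from mice with the same tumors given DMDD carried in lipid vesicles. DMDD is named only by its abbreviation, and the agent given to the model group, the dose, the route, the duration and the age of the mice were not stated. The labels give the sex of all 6 as male and, in the sample descriptions, speak of rats, but both the organism and the strain are those of a mouse. A grafted line of this kind leaves the host's own immune, stromal and vessel cells in the sampled tumor, so every value is a mean over mixed cells. The labels do not say which mouse gave which library, so the spread between libraries may be partly technical.

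S100 proteins carry a pair of EF-hands, the helix-loop-helix fold that holds calcium, and most act as dimers that expose a binding face when calcium rises in the cell. Inside cells they bind annexins, myosin and other targets. Some are also released, and then act on neighbouring cells through receptors such as RAGE, encoded by Ager, and TLR4. S100a8 and S100a9 are best known as abundant cytosolic proteins of neutrophils and monocytes, and S100a4 as a protein of motile and metastatic cells.

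The libraries held 13037500 to 15616840 counts. At that depth 3 counts stood for 0.193 to 0.230 CPM (counts scaled to a common library total with TMM factors), and values at or under that level were read as a floor. Markers of the epithelial tumor cells were abundant, with Epcam at 5637 to 17153 counts and Krt8 at 11713 to 26965. Model replicate 2 also held epidermal keratinocyte genes, with 591 counts of Krt1 against 0 in each of the other 5 libraries. Model replicate 1 stood apart from its own group over the whole table: across the 12891 genes tested, which are not independent replicates, its log2 CPM correlated at 0.973 to 0.981 with the DMDD liposome libraries and at 0.965 to 0.966 with model replicates 2 and 3. DMDD liposome replicate 2 also correlated best with model replicate 1, at 0.973, and at 0.968 and 0.963 with DMDD liposome replicates 1 and 3. DMDD liposome replicates 1 and 3 were the highest for skeletal muscle markers, whose summed level over 10 genes was 149.7 and 293.7 CPM there and 34.4 to 64.8 CPM in the other 4.

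Levels of different genes were compared in the deposited FPKM, which divide by gene length. S100a6 stood first, at 1518, 3765 and 3051 FPKM in model replicates 1 to 3 and at 1720, 2208 and 1436 FPKM in DMDD liposome replicates 1 to 3. It ranked 10 among all 16763 genes by mean FPKM and made up 51.7% to 60.8% of the summed FPKM of the 10 genes in each library. S100a10 ranked 49 and S100a11 ranked 77, with 560 to 1081 and 358 to 847 FPKM. Every library of S100a6 lay above every library of S100a10, whereas the ranges of S100a10 and S100a11 overlapped, although S100a10 was the higher of that pair in all 6 libraries. S100a9 and S100a8 followed, at mean levels of 148 and 111 FPKM and ranks of 344 and 504. All of their values lay below the lowest S100a11 library, and their own ranges overlapped. S100a16, S100a1 and S100a13, at 52.8, 50.9 and 40.0 FPKM on average, had ranges that overlapped, although S100a1 was above S100a13 in all 6 libraries. S100a14 stood below them at 18.2 FPKM. Its range reached into that of S100a13, although it was the lower of that pair in all 6 libraries.

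**Figure D1:**
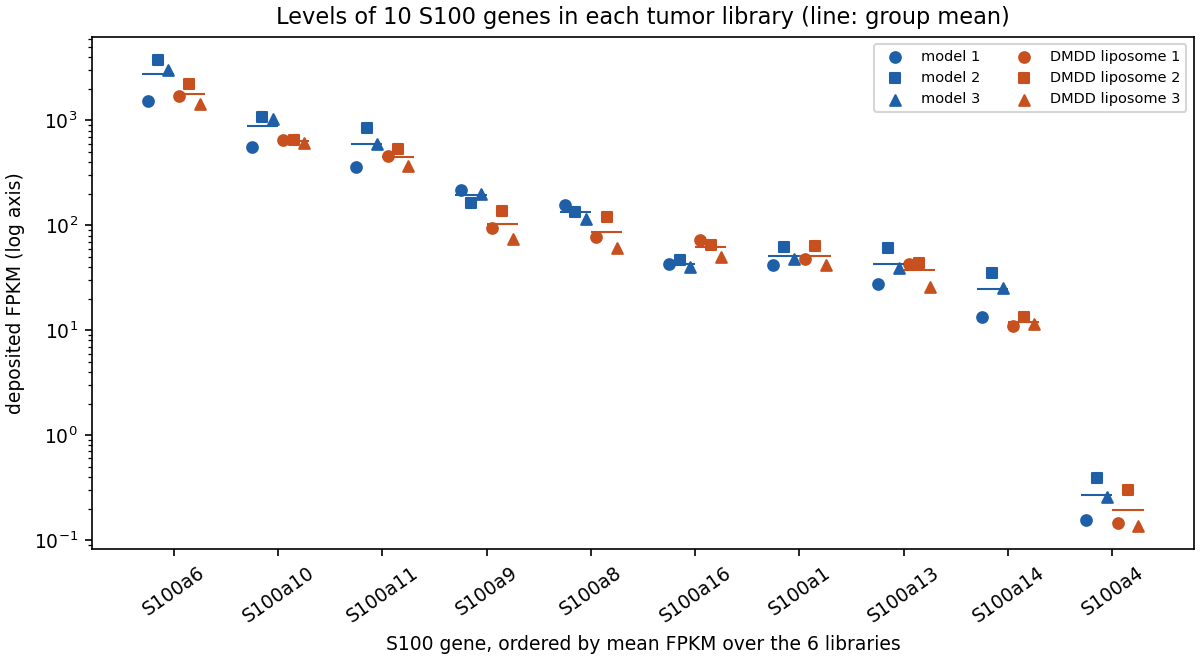
Deposited FPKM on a log axis of 10 S100 genes in 3 model libraries (blue) and 3 DMDD liposome libraries (orange), with replicates 1, 2 and 3 as circles, squares and triangles and lines at the group means. S100a6 lies above all others in every library, and S100a4 lies apart from the rest at 0.138 to 0.389 FPKM.

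S100a4 was close to absent from the counts. It had 1, 3 and 2 counts in model replicates 1 to 3 and 1, 2 and 1 counts in DMDD liposome replicates 1 to 3. All 6 values were at or under the floor of 3 counts, so no fold change is given, and the gene did not pass the filter on low counts. S100a4 is a gene that fibroblasts, macrophages and carcinoma cells are known to express, and markers of all of these were abundant in the same libraries: Col1a1, a fibroblast collagen, had 20759 to 55729 counts and Adgre1, a macrophage surface receptor, 328 to 727. In the GENCODE M21 annotation, 51.7% of the exon bases of S100a4 also belong to exons of Gm42674 on the same strand. None of the exon bases of the other 9 members are shared with another gene. In the same annotation 47.4% of the 50-base words of the S100a4 transcripts also occur in Gm42674. The annotation and the counting rule behind the deposited counts were not stated, so the part of this overlap in the low count was not tested, and no level of S100a4 can be taken from these counts.

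Between the groups, 8 of the 9 members tested had a lower level in DMDD liposome and 1, S100a16, a higher one. The median log2 fold change of the 9, taken as DMDD liposome over model, was -0.50, beside 0.01 over the 12891 genes tested, of which 6289 were negative. In bulk tumor RNA, fewer cells of a type and less RNA per cell cannot be told apart. The members were listed with earlier results of this comparison known, so these values are a description. With edgeR's quasi-likelihood test and Benjamini-Hochberg adjustment over all genes, 0 of the 9 passed an adjusted p of 0.05, as did 0% of all genes, and the smallest adjusted p among the members was 0.626. edgeR's unadjusted p was under 0.05 for 4 of the 9, S100a8, S100a9, S100a14 and S100a16, and for 7.65% (986) of all genes tested. DESeq2 passed 1 of the 9, S100a9, and 0.408% of all genes (59). The groups did not overlap for 2 of the 9, S100a9 and S100a16, against 12.9% of all genes tested. S100a9 was higher in model, as were 5.66% of all genes tested without overlap, and S100a16 higher in DMDD liposome, as were 7.21%.

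**Figure D2:**
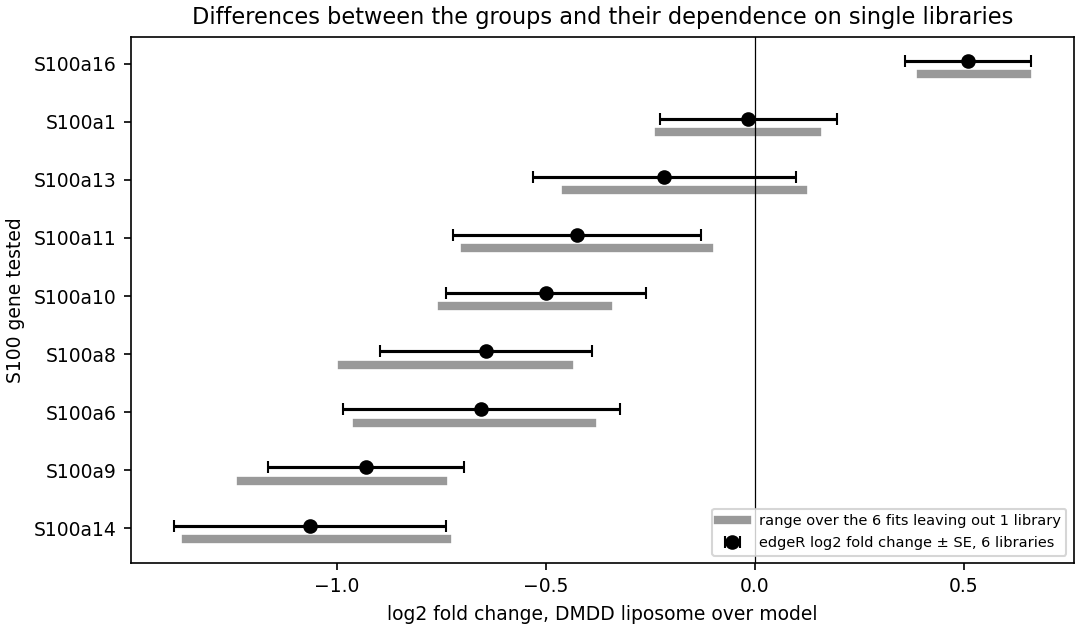
Log2 fold change of DMDD liposome over model for the 9 members tested (points, with bars of 1 SE from the edgeR fit to 6 libraries), and below each point the range over the 6 fits that each leave out 1 library (gray). S100a14 and S100a9 lie farthest below 0, at -1.06 and -0.93, and the gray ranges of S100a1 and S100a13 cross 0.

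S100a8 and S100a9 encode the subunits of calprotectin, a heterodimer that binds zinc and manganese as well as calcium and is released by activated neutrophils and monocytes. S100a9 measured 113, 85.5 and 107 CPM in model replicates 1 to 3 and 48.4, 73.2 and 38.8 CPM in DMDD liposome replicates 1 to 3. The groups did not overlap, and DMDD liposome replicate 2 was the nearest to the model group. The group means of 102 ± 14.5 CPM and 53.5 ± 17.7 CPM (SD, n = 3 each) gave a log2 fold change of -0.93 ± 0.23 (SE, 0.525-fold). S100a9 was, in the authors' deposited table, the only member past an adjusted p of 0.05, at 1.92-fold higher in model (adjusted p = 0.0440), where that table passed 0.346% of its genes. DESeq2 on the same counts, which repeats that test, gave an adjusted p of 0.0438. With 1 library left out, DESeq2 no longer passed S100a9 in 4 of the 6 fits. The adjusted p was 0.0881 without model replicate 2, 0.391 without model replicate 3, 0.599 without DMDD liposome replicate 1 and 0.182 without DMDD liposome replicate 3, at log2 fold changes of -1.05, -0.91, -0.87 and -0.76.

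S100a8 measured 75.2, 64.7 and 57.5 CPM in the model libraries and 37.0, 59.8 and 29.6 CPM in the DMDD liposome libraries. DMDD liposome replicate 2 lay above model replicate 3, so the groups overlapped. The log2 fold change was -0.64 ± 0.25 (SE), and -0.99 without DMDD liposome replicate 2. S100a9 exceeded S100a8 in each library by a ratio of FPKM that ran from 1.23 to 1.73 in model and from 1.14 to 1.22 in DMDD liposome. Summed, the pair took 12.7% of the FPKM of the 10 members in model replicate 1 and 4.80% to 6.77% in the other 5 libraries. In model replicate 1, S100a8 and S100a9 were at their highest of all 6 libraries, and S100a10 and S100a11 at their lowest.

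Neutrophil marker genes are given beside this pair because neutrophils are a main source of both proteins. Of 14 neutrophil list members tested, 0 passed edgeR's adjusted test, 6 were negative and 8 positive, with a median log2 fold change of 0.03. Ly6g, the defining surface marker of mouse neutrophils, had only 2 to 17 counts per library. Csf3r, the receptor of the neutrophil growth factor G-CSF, measured 35.1, 21.0 and 31.8 CPM in model and 26.5, 23.6 and 20.2 CPM in DMDD liposome. Cxcr2, the chemokine receptor of neutrophils, measured 8.59, 6.71 and 12.1 CPM against 6.09, 7.10 and 4.50 CPM, and Retnlg, a secreted neutrophil protein, 7.13, 10.3 and 6.63 CPM against 4.25, 6.72 and 3.27 CPM. The groups overlapped for each of these 4 genes, and in DMDD liposome the means of Csf3r, Cxcr2 and Retnlg were lower and that of Ly6g higher. The other members tested went in differing directions. Il1b and Wfdc21 were lower in DMDD liposome, at log2 fold changes of -0.49 and -0.41. Ngp, Camp and Mmp8, of neutrophil granules, and Ifitm6 were level, at 0.03, -0.02, 0.03 and 0.05. Ltf, Clec4d, Fpr1, Lcn2 and Mmp9 were higher, at 0.21, 0.49, 0.76, 0.61 and 0.60. The summed list was higher in DMDD liposome, at 898 to 1144 CPM in model and 1187 to 1655 CPM in DMDD liposome. Lcn2 and Mmp9, which epithelial and other cells also express, made up 77.7% to 90.7% of that sum. Without Lcn2 and Mmp9 the list summed to 189, 141 and 200 CPM in model replicates 1 to 3. In DMDD liposome replicates 1 to 3 it then summed to 137, 154 and 137 CPM, and the groups overlapped. Il1b alone held 87.4, 68.0 and 121 CPM of that sum in model replicates 1 to 3. In DMDD liposome replicates 1 to 3 it held 56.2, 70.9 and 69.8 CPM, so the trimmed sum leans on this gene. Monocytes also make both proteins, and the macrophage and monocyte list had 12 of 15 members positive, with a median log2 fold change of 0.48 and 0 past edgeR's adjusted test. Its summed level was 1810 to 3114 CPM in model and 3239 to 4261 CPM in DMDD liposome. Lyz2 alone had means of 665 CPM (model) and 1318 CPM (DMDD liposome) in that sum. Ly6c2 and Ccr2 of the list stood at log2 fold changes of 0.28 and 0.36, with groups that overlapped. The part of neutrophil or monocyte number in the S100a8 and S100a9 values was not tested.

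**Figure D3:**
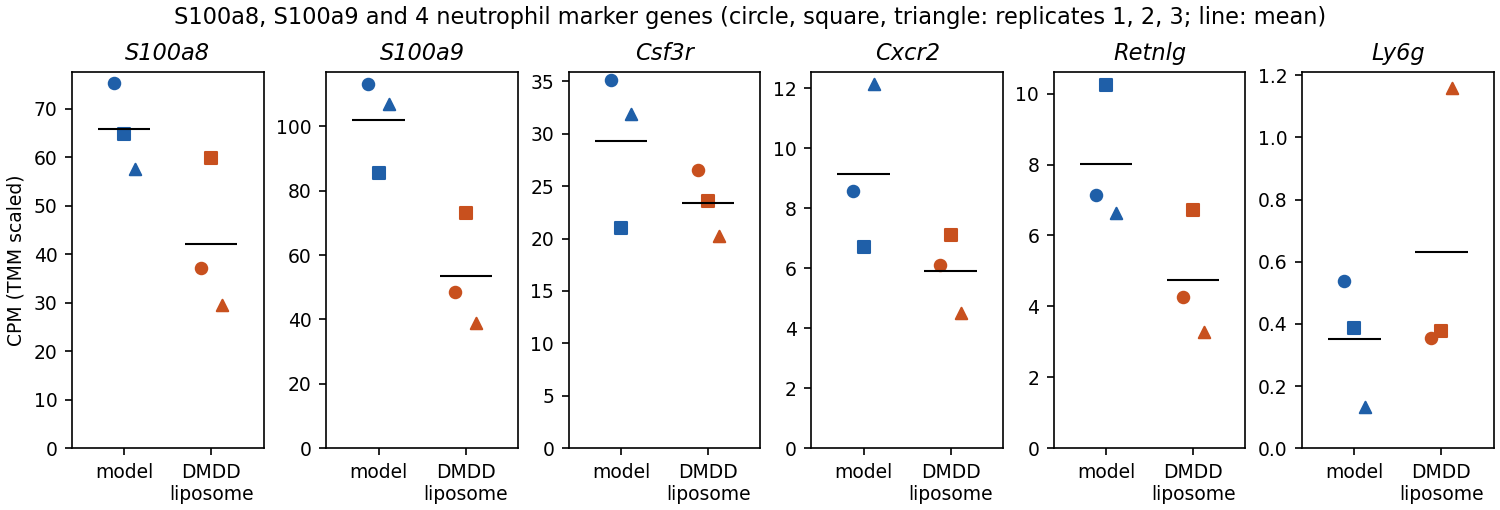
CPM of S100a8, S100a9, Csf3r, Cxcr2, Retnlg and Ly6g in the 3 model (blue) and 3 DMDD liposome (orange) libraries, each panel with its own axis from 0, with lines at the group means. Of these genes, S100a9 shows no overlap of the groups, and Ly6g reaches at most 1.16 CPM.

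Upstream sequence is shown for S100a8 and S100a9 because each was the other's nearest gene in pattern across the libraries, and for S100a6 and S100a11 because they were the closest pair among the members. The sequences are RefSeq promoters of build GRCm38.p6, matched by symbol for 8 of the 10 members. The part printed is a 150-base stretch that ends before the first annotated exon. Capitals mark matches on either strand to TTNNGNAA (a C/EBP-like core), TGANTCA (AP-1) and GGGCGG (a GC box). The C/EBP family is known to act on both calprotectin genes in myeloid cells.
S100a8, chr3:90668828-90668977, plus strand: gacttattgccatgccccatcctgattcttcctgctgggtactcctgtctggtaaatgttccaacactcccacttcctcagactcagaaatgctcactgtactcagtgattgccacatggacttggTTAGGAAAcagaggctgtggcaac
S100a9, chr3:90695722-90695871, minus strand: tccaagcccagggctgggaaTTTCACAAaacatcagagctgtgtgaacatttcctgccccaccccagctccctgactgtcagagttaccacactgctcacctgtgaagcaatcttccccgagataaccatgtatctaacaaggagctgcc
S100a6, chr3:90612732-90612881, plus strand: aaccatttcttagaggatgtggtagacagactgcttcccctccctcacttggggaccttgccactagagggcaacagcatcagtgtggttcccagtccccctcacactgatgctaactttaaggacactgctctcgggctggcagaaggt
S100a11, chr3:93520338-93520487, plus strand: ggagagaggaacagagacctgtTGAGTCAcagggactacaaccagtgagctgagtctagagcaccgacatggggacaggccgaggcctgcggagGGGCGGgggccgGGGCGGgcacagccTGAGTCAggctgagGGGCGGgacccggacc

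Over the full 250 bases before the RefSeq start, S100a8 held 1 C/EBP-like match and S100a9 held 2, the second of which lies outside the stretch printed, as does 1 GC box of S100a9. The C/EBP-like letters are common, with a match in 36.8% of the 32851 promoters of that length. S100a11 held 2 AP-1 matches, which 6.75% of promoters hold at least once, and 3 GC boxes, which 32.7% hold at least once. S100a6 matched none of the 3 motifs in its window. All these matches are letters only, and no binding was measured. By RefSeq names all 10 members lie on chromosome 3, with S100a8 and S100a9 next to each other in the order of S100 genes there, while S100a11 and S100a10 close the row.

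S100a6, S100a10, S100a11 and S100a14 were lower on average in DMDD liposome. In all 4, model replicates 2 and 3 were the highest libraries, while model replicate 1 was within or below the DMDD liposome range. That library was also close to the DMDD liposome libraries over all genes, and a link between the 2 was not tested. S100a6, known as calcyclin, binds the ubiquitin ligase adaptor encoded by Cacybp and is widely expressed in proliferating cells. It measured 1228, 3041 and 2531 CPM in model and 1356, 1811 and 1154 CPM in DMDD liposome. Model replicate 1 lay inside the DMDD liposome range, below replicates 1 and 2 of that group. The log2 fold change was -0.65 ± 0.33 (SE), -0.95 without model replicate 1 and -0.39 without model replicate 2.

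S100a10 is the S100 protein whose EF-hands have lost calcium binding, and it is held at the membrane in a tetramer with annexin A2, where it binds plasminogen. It measured 449, 866 and 843 CPM in model and 507, 530 and 489 CPM in DMDD liposome, so that model replicate 1 was the lowest of all 6 libraries. The DMDD liposome libraries were close to each other (509 ± 20.5 CPM, SD, n = 3) beside a wide model group (719 ± 234 CPM). The log2 fold change of -0.50 ± 0.24 (SE) became -0.75 without model replicate 1, in a fit where edgeR's adjusted p was 0.0465. That fit passed 112 of 13159 genes, beside 0 of 12891 with all 6 libraries. Anxa2, which encodes annexin A2, had means of 1175 ± 266 CPM (model) and 894 ± 13.2 CPM (DMDD liposome). Its log2 fold change of -0.39 ± 0.18 (SE) did not pass edgeR's adjusted test. Ahnak, a giant scaffold protein that binds the S100a10 and annexin A2 complex, stood at -0.33 ± 0.18 (SE).

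S100a11, a partner of annexin A1, measured 183, 432 and 310 CPM in model and 228, 275 and 186 CPM in DMDD liposome. Model replicate 1 was again the lowest library. Its log2 fold change of -0.43 ± 0.30 (SE) went to -0.69 without model replicate 1 and to -0.11 without model replicate 2. S100a11 shares 41.1% of the 50-base words of its transcripts with transcripts of 3 other genes in GENCODE M21, led by Gm12854, so the split of its reads is uncertain, and apart from S100a4 the other members share none. Anxa1, which encodes annexin A1, stood at -0.27 ± 0.15 (SE).

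S100a14 is a member known mainly from epithelial cells. It had 190, 591 and 428 counts in model and 163, 194 and 183 in DMDD liposome. On the CPM scale model replicate 1, at 14.6, lay just below DMDD liposome replicate 2, at 14.7, and the other model libraries stood at 38.1 and 28.1. The log2 fold change of -1.06 ± 0.33 (SE, 0.478-fold) was the lowest of the members. It became -0.74 without model replicate 2, the library that also held keratinocyte genes. Without model replicate 1 it was -1.36 (edgeR adjusted p = 0.0441), in the fit that passed 112 of 13159 genes. Of the epithelial tumor cell markers, 10 of 12 were negative too, with a median log2 fold change of -0.58, and 0 were past edgeR's adjusted test. DESeq2 passed Cldn7 of these markers, at -1.25 (DESeq2 adjusted p = 0.0204), beside 0.408% of all genes. Their summed level was 4237, 7109 and 6409 CPM in model and 4521, 3916 and 4858 CPM in DMDD liposome, with model replicate 1 inside the DMDD liposome range as for S100a6. Epcam, an epithelial adhesion molecule, stood at -0.63 ± 0.28 (SE) and Krt8, a keratin of simple epithelia, at -0.50 ± 0.22 (SE). The part of epithelial cell content, or of keratinocytes in model replicate 2, in S100a6, S100a10, S100a11 and S100a14 was not tested.

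**Figure D4:**
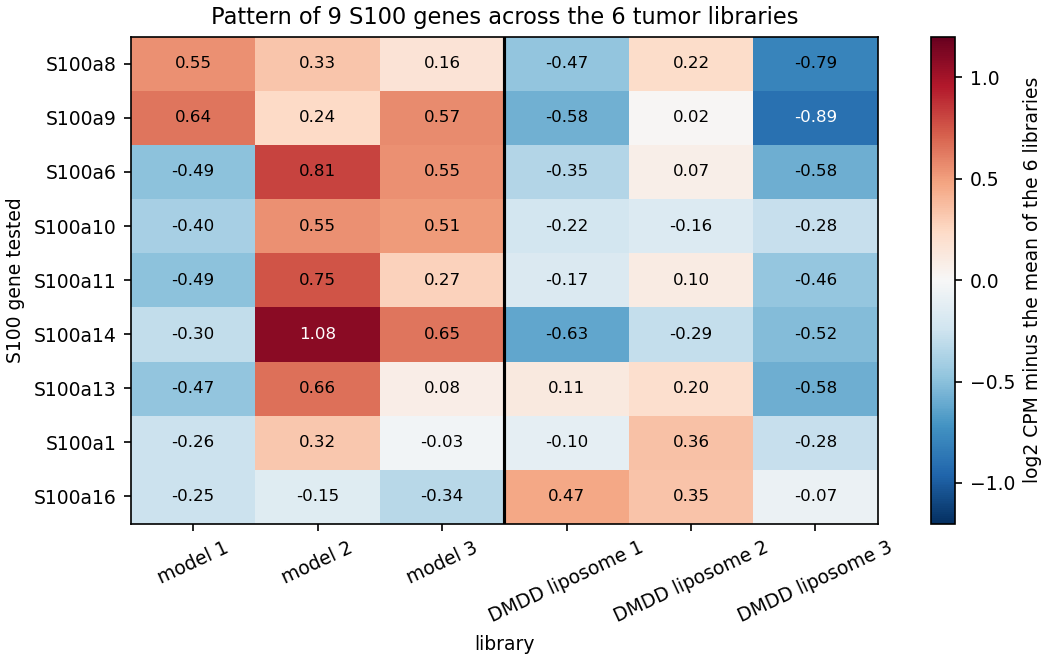
Log2 CPM of the 9 members tested, each minus its own mean over the 6 libraries, with the model libraries left of the line and the DMDD liposome libraries right of it. S100a8 and S100a9 are highest in model replicate 1, where S100a6, S100a10 and S100a11 are at -0.49, -0.40 and -0.49.

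S100a13 was close in pattern to S100a11, at a root mean square difference of 0.16 in centred log2 CPM, but differed less between the groups. S100a13, which takes part in the release of FGF1 and interleukin 1 alpha from cells, measured 19.7, 43.5 and 28.9 CPM in model and 29.7, 31.5 and 18.3 CPM in DMDD liposome. The log2 fold change was -0.22 ± 0.31 (SE), smaller than its error, and 0.11 without model replicate 2. Fgf1 stood at 53 to 64 counts under model and at 217, 24 and 166 counts in DMDD liposome replicates 1 to 3. Its high values were in the libraries that were also highest for skeletal muscle markers, and the part of muscle in them was not tested.

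S100a1, a regulator of calcium release and uptake in muscle, measured 29.1, 43.5 and 34.0 CPM in model and 32.4, 44.6 and 28.6 CPM in DMDD liposome. The group means of 35.5 ± 7.35 and 35.2 ± 8.34 CPM (SD, n = 3 each) gave a log2 fold change of -0.02 ± 0.21 (SE). The library highest in S100a1 was DMDD liposome replicate 2. Acta1, the actin of skeletal muscle, had 11 counts there and 633 and 1425 in DMDD liposome replicates 1 and 3. The part of muscle in the S100a1 values was not tested.

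S100a16, a broadly expressed member, was the only member with a higher level in DMDD liposome. It measured 62.2, 66.9 and 58.7 CPM in model and 103, 94.3 and 70.7 CPM in DMDD liposome. The groups did not overlap, and DMDD liposome replicate 3 was the nearest to the model group. The means of 62.6 ± 4.13 and 89.2 ± 16.6 CPM (SD, n = 3 each) gave a log2 fold change of 0.51 ± 0.15 (SE, 1.42-fold), which stayed between 0.40 and 0.65 in edgeR fits that left out 1 library. For S100a16 the authors' deposited table gave an adjusted p of 0.260.

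Likeness of pattern was measured as the root mean square difference of log2 CPM, centred over the 6 libraries, among 9576 genes of at least 10 CPM on average. The nearest gene to S100a8 was S100a9, and the reverse held too, at 0.20, beside SDs of 0.52 and 0.62 for the pair. Next came Fgfr1 for S100a8 (0.20) and F2rl1 for S100a9 (0.24). S100a6 lay nearest to Rac3 (0.10) and then to S100a11 (0.15), the closest pair among the members themselves. Tmem54 and Chaf1a were nearest to S100a10 (0.05 and 0.08), and Pcolce2 and Gmnn to S100a11 (0.07 and 0.13). For S100a14 they were Serpinb5 and Mgst3 (0.16 and 0.18), and for S100a13 Paqr8 and Phlda2 (0.13 and 0.14). S100a1 had Phf5a and Rcc1 (0.06 for each), and S100a16 had Tmsb4x and Nacc2 (0.08 and 0.09). These neighbours are a description over 6 libraries that share their group, and no test was made of them.

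Receptors of released S100 proteins did not follow the calprotectin pair. Of 9 genes in that list, 6 were positive and 3 negative, 0 passed edgeR's adjusted test, and the median log2 fold change was 0.28. Ager, which encodes RAGE, had 6 to 20 counts per library. Tlr4 had means of 34.6 ± 3.80 CPM (model) and 43.7 ± 5.07 CPM (DMDD liposome; SD, n = 3 each), with groups that did not overlap and a log2 fold change of 0.34 ± 0.14 (SE). Bsg, the abundant surface glycoprotein basigin that binds S100a9, stood at -0.03 ± 0.10 (SE).

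Among 17 intracellular partners tested, 9 were positive and 8 negative, with a median of 0.03, and 0 passed edgeR's adjusted test. Myh9, the nonmuscle myosin heavy chain bound by S100a4, stood at -0.07 ± 0.15 (SE), and Cacybp at -0.05 ± 0.13 (SE). Anxa11, an annexin bound by S100a6, stood at -0.25 ± 0.16 (SE). Of 5 transcription factors tested that are known to act on S100a8 and S100a9, 3 were positive and 2 negative and 0 passed edgeR's adjusted test. Cebpb had means of 562 ± 90.0 CPM (model) and 600 ± 152 CPM (DMDD liposome), closer than their SDs.

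Other family genes were rare in these tumors. S100a7a, which is not among the 10, had 54, 49 and 62 counts in model and 70, 83 and 75 in DMDD liposome, with groups that did not overlap. S100a3 had 0 to 13 counts, the highest of them in model replicate 2, S100b had 0 to 6, and S100a5 and S100g had at most 1. The summed level of 5 S100 fused-type genes, which encode large proteins of the cornified epidermis, was 4.26 CPM in model replicate 2 and at most 0.263 CPM in each other library, the same library that held the keratinocyte genes.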

How the data were processed

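Total RNA of the tumor samples was prepared as 6 libraries (3 model, 3 DMDD liposome) with NEBNext Ultra reagents, per the labels. One deposited table gave whole-number read counts per gene. It also gave a normalized signal, counts that the authors had divided by a factor per library (not used here beyond that check), and FPKM, per the file headers, which followed from the counts and 1 length per gene for all 10 members. The log2 fold changes of the authors' table have model in the numerator, and its deposited p-values come with DESeq2, per the submitters' processing notes, which also name build mm9. Aligner, counter, annotation and strand setting: not given in the sources used here. The reference annotation was of another build and served only for names, overlaps and the printed promoters.

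Testing used edgeR 4.0.16 under R 4.3.3 on the counts (filterByExpr, minimum count 10 and total 15, leaving 12891 genes; TMM; two-sided quasi-likelihood test; Benjamini-Hochberg over all genes; threshold 0.05). CPM are TMM scaled, and log2 CPM used a prior count of 2. SEs came from the F statistic. Alternatives used DESeq2 1.42.0 and limma 3.58.1. The edgeR, DESeq2 and limma-voom fits were tested on simulated counts. The members and the gene lists were chosen with earlier results of these data known. All members were named. List genes were named from a fixed set of symbols, and those of like pattern by rank of their distance, 2 per member, leaving out predicted genes. S100a7a, S100a5, Lcn2, Mmp9, Ngp, Camp, Mmp8, Ltf, Clec4d, Fpr1, Il1b, Wfdc21, Ifitm6, Lyz2, Ly6c2, Ccr2, Cldn7, Gm42674 and Gm12854 were added after their values were seen. The other marker lists (endothelial cells, smooth muscle and pericytes, T and cytotoxic lymphocytes, B cells, dendritic cells, fat cells, fibroblasts, macrophages and monocytes) had 0 genes past the threshold.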

Additional observations from a re-analysis of the deposited data

How the results depend on the processing

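edgeR called 0 genes with TMM, with DESeq2 size factors, without the filter on low counts, with a replicate block and at a threshold of 0.01, and limma-voom with sample quality weights called 0. DESeq2 called 59. Leaving out each library in turn gave 0 to 112 genes in edgeR, the 112 without model replicate 1, and, in DESeq2, 867, 30 and 18 without model replicates 1 to 3 and 20, 128 and 87 without DMDD liposome replicates 1 to 3. The DESeq2 fits that left out 1 library were chosen after seeing the data. Of 153 alternative values of the 9 members tested, 134 kept their direction and their side of the threshold, 11 kept the direction and passed it, and 8 changed sign. Those 8 were of S100a1 and S100a13. Without 1 library, S100a1 (-0.02) ran from -0.23 to 0.15 in edgeR and S100a13 (-0.22) from -0.45 to 0.11; the cause was not tested. The 8 values above 0 were, for S100a1, 0.15, 0.04 and 0.11 in edgeR and 0.15, 0.032 and 0.10 in DESeq2 (without model replicate 2, DMDD liposome replicate 1 and DMDD liposome replicate 3), and for S100a13, 0.11 in both (without model replicate 2). DESeq2 also passed S100a6, S100a10, S100a11 and S100a14 without model replicate 1, S100a8 without DMDD liposome replicate 2 and S100a16 without DMDD liposome replicate 3.

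The replicate numbers were not taken to pair the samples, since the labels do not say that they do. The correlations of same-numbered deviations were 0.0876, 0.114 and 0.121 over 12891 genes. Every library correlated best with its own number, but deviations taken within groups of 3 libraries cannot decide whether the samples were paired. Under the replicate block S100a9 stood at -0.97 (edgeR adjusted p = 0.417). S100a3, S100a4, S100a5, S100b and S100g were too low in counts to be compared between the groups at this depth; the cause of the low S100a4 count was not tested.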
